A study of Mus musculus with 14 samples.

Results

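The genes described here are 33 transcripts that mark macrophages, monocytes and neutrophils or that serve as general leukocyte markers, out of the 46517 genes measured in mouse lung tumours. They were chosen by symbol: a list of names was looked up in the table by Ensembl identifier, and each of the 33 was found in 1 row. The look-up used no measured value, but the list was chosen with earlier results of these data known.

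Macrophages are phagocytes that depend on the receptor Csf1r, and many of them make C1q, the recognition molecule of the classical complement pathway. Lung alveolar macrophages live in the airspaces, where they clear surfactant, and in mice they express Itgax, Marco, Chil3 and Fabp4. Neutrophils are short-lived granulocytes that release the calcium-binding pair S100a8 and S100a9 and migrate through the receptor Cxcr2. Small cell lung cancer (SCLC) is a neuroendocrine tumour, and leukocytes reach its RNA only as part of the tissue that is cut out with it.

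RNA-seq was done on 14 untreated lung tumours from 2 mouse models of SCLC. In both models the floxed tumour suppressor genes Rb1 and Trp53 are deleted by adenoviral Cre, which the promoter of Cgrp, a peptide of pulmonary neuroendocrine cells, drives. RPM tumours (n = 11) also carry the Cre-activated Myc T58A allele, and RPR2 tumours (n = 3) instead have floxed p130 (Rbl2). Of the RPM tumours, 9 were LSL/LSL and 2 were LSL/+ for Myc, the LSL/+ tumours being replicates 2 and 4. Tumours were cut out by eye, so neighbouring lung can be included, and the mice's age and sex were not used here. The values are FPKM, a level per transcript length and sequencing depth, as deposited by the authors. From the spacing of the lowest values, RPM libraries hold an estimated 17.3 to 20.05 M reads each, against 21.45 to 22.9 M in RPR2. With 3 reads, a gene would then show 0.334 to 0.382 FPKM in RPM and 0.292 to 0.313 FPKM in RPR2 for a transcript of 500 bases, for counting error only. RPM replicates 6 and 7 share a number in their titles, as do replicates 10 and 11, and no label says whether these are tumours of one animal. Where the labels name no separate animals, p-values measure only the spread between these samples.

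Myc, the gene that RPM adds, was at 48.4 to 384 FPKM in RPM tumours, against 4.68, 6.83 and 13.6 FPKM in RPR2 tumours, as the labels say. Rbl2, floxed in RPR2, was at 3.43 to 9.90 FPKM in RPM, against 3.58, 7.55 and 3.34 FPKM in RPR2, and these sums over the whole gene do not single out the deleted part. Of the genes floxed in both models, Rb1 was at 5.19 to 22.6 FPKM in RPM, against 39.4, 49.8 and 3.58 FPKM in RPR2, and Trp53 was at 78.0 FPKM in RPM replicate 9, at 7.93 to 16.1 FPKM in the other RPM tumours and at 10.3, 12.4 and 5.69 FPKM in RPR2. One library stood apart before any test. RPR2 replicate 3 had a summed level of 51996 FPKM over 9 genes of alveolar type 2 cells, the surfactant-making cells of the alveolus, against 1265 and 1990 FPKM in the other RPR2 tumours and 17.8 to 895 FPKM in RPM tumours. Its summed level of 6 neuroendocrine genes was 12.2 FPKM, against 2278 and 3403 FPKM in the other RPR2 tumours and 199 to 1196 FPKM in RPM tumours. By these genes the library labelled RPR2 replicate 3 goes against its label, and many differences between the models, including those of the called members, are also given without it. Library request numbers in the descriptions also differ between the models, so genotype and request cannot be told apart. Within RPM, replicate 9 has a request number that no other tumour shares.

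Sequence bears on how some of these genes can be read. The lysozyme genes Lyz1 and Lyz2 lie side by side on the minus strand of chromosome 10 (GRCm38, chr10:117287797-117292868 and chr10:117277331-117282321), and their coding sequences of 447 bases differ at 22 positions. The first 120 coding bases are shown because they hold 11 of those 22 differences, which are in capitals.
Lyz1: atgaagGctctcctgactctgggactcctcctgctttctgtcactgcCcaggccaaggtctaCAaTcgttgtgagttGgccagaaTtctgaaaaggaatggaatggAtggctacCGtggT
Lyz2: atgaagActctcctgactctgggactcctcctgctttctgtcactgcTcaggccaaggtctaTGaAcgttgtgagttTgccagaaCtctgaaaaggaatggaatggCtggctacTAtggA
The longest stretch that both coding sequences share is 118 bases, longer than the reads (estimated at 47 to 56 bases), and 16.1% of all 50-base words of Lyz1 and 15.4% of those of Lyz2 occur in the other gene. RSEM divides reads of such stretches between the genes, so the low Lyz1 values are uncertain beside the high Lyz2 values. Chil3 shares 16.9% of its 50-base words with its neighbour in the family, Chil4, and 13.3% with Gm6522. Chil4 was at most 0.16 FPKM in RPM tumours and at 0.05, 0.00 and 7.76 FPKM in RPR2 tumours, far below Chil3 wherever Chil3 was high. Fcgr3 shares 9.58% of its words with Fcgr2b, and Itgax shares 8.02% with Itgad. Itgam shares 66.3% of its words with Gm49368, which overlaps 68.7% of its exon length on the same strand. No level was listed under the name Gm49368. Exons of Csf1r overlap Hmgxb3 on the opposite strand over 15.1% of their length, and the strand setting of the counting is not given in the sources used here.

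Promoters of 26 of the 33 members were found in RefSeq (GRCm38.p6), as windows from 250 bases before to 50 bases after the gene start. PU.1 (Spi1) and the C/EBP proteins are the transcription factors best known for driving macrophage and neutrophil genes. The word GAGGAA, the core that PU.1 binds, was found on either strand in 16 of the 26 (61.5%), against 28.3% of all 32851 windows. The word TTNNGCAA, a consensus for C/EBP proteins, was searched separately in the same way and found in 6 of the 26 (23.1%), against 10.8% of all windows. The 250 bases before the start are shown for C1qb (chr4:136886201-136886450) and C1qc (chr4:136892915-136893164), neighbouring genes for chains of the same complex, and for Chil3 (chr3:106167565-106167814), the member with the largest difference between the models. All 3 read along the minus strand, 5′ to 3′, and capitals mark GAGGAA or its reverse complement.
C1qb: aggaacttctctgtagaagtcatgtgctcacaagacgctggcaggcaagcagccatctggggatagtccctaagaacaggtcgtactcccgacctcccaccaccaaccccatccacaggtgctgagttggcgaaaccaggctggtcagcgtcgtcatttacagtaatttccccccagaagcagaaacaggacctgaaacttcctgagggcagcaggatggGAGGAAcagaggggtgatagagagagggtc
C1qc: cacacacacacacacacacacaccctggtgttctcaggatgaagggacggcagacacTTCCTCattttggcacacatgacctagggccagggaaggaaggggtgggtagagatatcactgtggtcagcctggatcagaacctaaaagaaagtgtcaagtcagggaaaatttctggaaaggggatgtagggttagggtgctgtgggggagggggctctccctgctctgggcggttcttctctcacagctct
Chil3: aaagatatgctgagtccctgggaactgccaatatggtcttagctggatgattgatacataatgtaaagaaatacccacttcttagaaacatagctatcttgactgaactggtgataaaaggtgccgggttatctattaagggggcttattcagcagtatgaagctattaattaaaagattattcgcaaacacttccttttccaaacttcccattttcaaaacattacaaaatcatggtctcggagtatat
Counted from the gene start, the word begins at -30 in C1qb and at -193 in C1qc, where it lies on the other strand, and neither word occurs in the window of Chil3. A match describes letters only, and binding was not measured.

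Most members were present in every tumour of both models. Lyz2, which encodes the lysozyme of mouse macrophages and of alveolar type 2 cells, was the most abundant member in every library except RPM replicates 2 and 3, where Fabp4 was higher. Among the members with the next higher RPM medians were the C1q chains, Ctss, Tyrobp and Fabp4, and neutrophil genes lay near 1 FPKM in most tumours. Against the background of 41.2% of 15719 tested genes that passed the test between the models (18.4% higher and 22.8% lower in RPM), 1 of 31 tested members was higher in RPM (Fabp4) and 3 were lower (Chil3, Cd14 and Lyz2). Tests were made with limma on log2(FPKM + 1) with Benjamini-Hochberg adjustment over all tested genes, and a call is an adjusted p under 0.05. The share of members called was below that of all genes. In all, 2897 genes were called higher and 3586 lower, against 1878 higher and 3588 lower when each library was scaled to the same total. In bulk tissue, fewer cells of a type and less RNA per cell cannot be told apart.

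**Figure D1:**
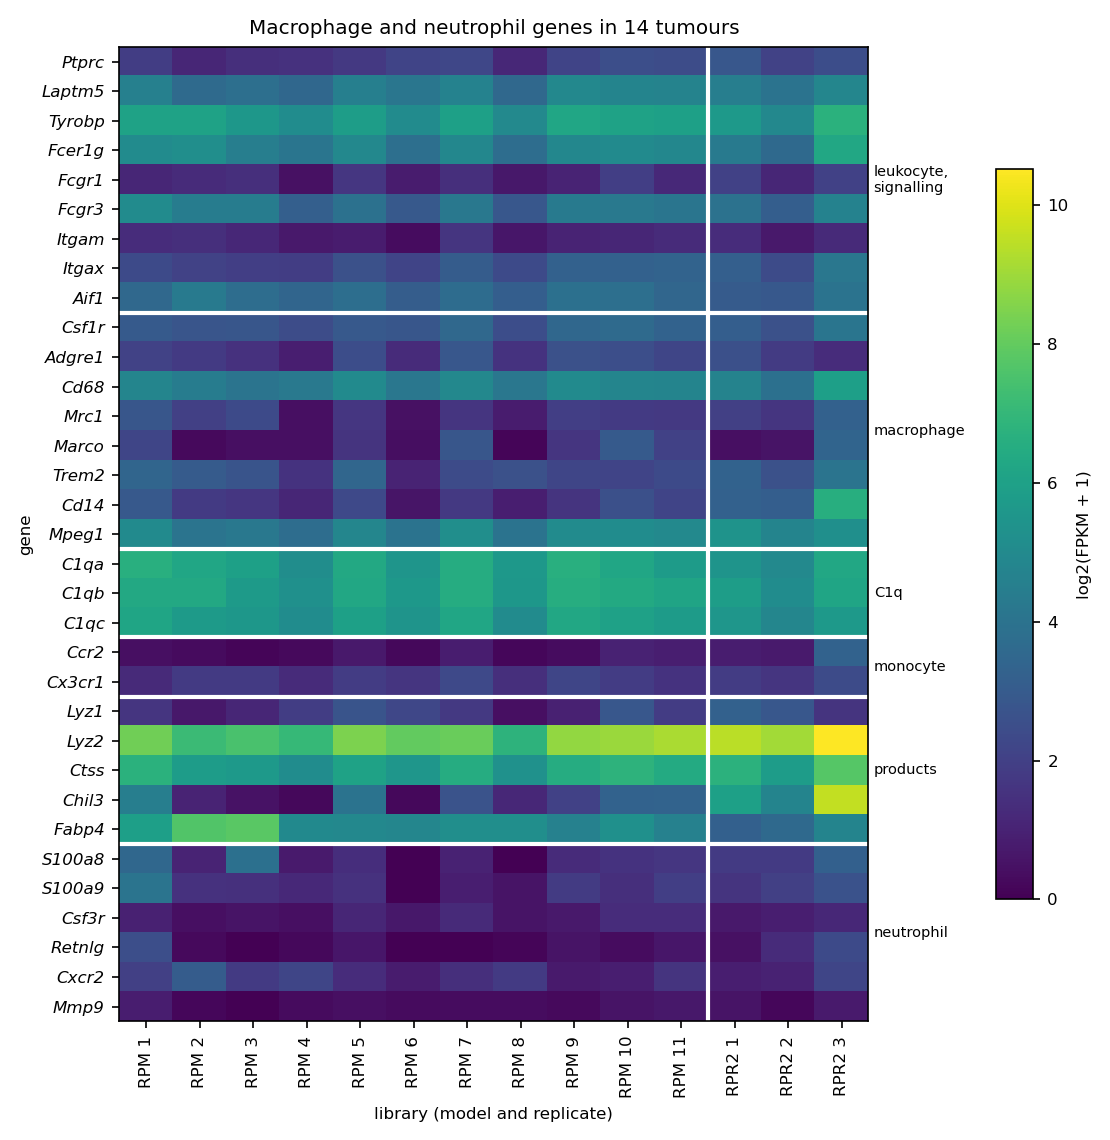
Level of each of the 33 genes, as log2(FPKM + 1) by colour, in 11 RPM tumours (left of the white line) and 3 RPR2 tumours (right), with rows grouped by role. Lyz2 is bright in every column, the neutrophil rows are dark in most, and RPR2 replicate 3 has the highest level of 14 of the 33 genes.

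Chil3 encodes a secreted chitinase-like protein (Ym1) that is abundant in mouse alveolar macrophages. Its level was 0.16 FPKM at the lowest, 3.13 at the median and 21.3 at the highest in RPM tumours, against 62.1, 26.2 and 749.7 FPKM in RPR2 tumours. The groups did not overlap: every RPM tumour was below every RPR2 tumour, as was the case for 13.6% of all tested genes. The mean was 6.01 ± 6.98 FPKM in RPM (SD, n = 11) and 279 ± 408 FPKM in RPR2 (SD, n = 3). The log2 difference was -4.67 ± 1.02 (SE), with a limma Benjamini-Hochberg adjusted p of 0.00215. Without RPR2 replicate 3 it was -3.27 (limma adjusted p = 0.0191), so the call held without the library that had the largest value.

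Cd14, the co-receptor for bacterial lipopolysaccharide on monocytes and macrophages, was the other member whose groups did not overlap. RPM tumours had 0.50 FPKM at the lowest, 2.37 at the median and 6.77 at the highest, against 8.63, 7.95 and 96.0 FPKM in RPR2 tumours. The log2 difference was -2.58 ± 0.62 (SE, limma adjusted p = 0.0038), and -1.45 without RPR2 replicate 3 (limma adjusted p = 0.0258). No member had all RPM tumours above all RPR2 tumours, whereas 11.1% of all tested genes did.

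Lyz2 was at 110.0 FPKM at the lowest, 276 at the median and 581 at the highest in RPM tumours, against 688, 541 and 1469 FPKM in RPR2 tumours. RPM replicate 11 was above RPR2 replicate 2, and all other RPM tumours were below all RPR2 tumours. The mean was 295 ± 156 FPKM in RPM (SD, n = 11) and 899 ± 499 FPKM in RPR2 (SD, n = 3), a log2 difference of -1.66 ± 0.47 (SE, limma adjusted p = 0.0115). Without RPR2 replicate 3 the log2 difference was -1.24 and the call was lost (limma adjusted p = 0.0734). Lyz1 did not pass with all libraries (log2 difference -0.91, limma adjusted p = 0.153). It was lower in RPM without RPR2 replicate 3 (log2 difference -1.41, limma adjusted p = 0.0458), within the limit that the shared sequence sets. Alveolar type 2 genes moved with these falls: all 9 of the list were lower in RPM (median log2 difference -4.87), and 5 of 9 were without RPR2 replicate 3. Their summed level was 17.8 to 895 FPKM in RPM, against 1265 to 51996 FPKM in RPR2, and their part in the lower Lyz2, Chil3 and Cd14 of RPM was not tested.

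Fabp4, a lipid chaperone of alveolar macrophages, adipocytes and capillary endothelium, was the only member called higher in RPM. Its level was 23.8 FPKM at the lowest, 35.3 at the median and 225 at the highest in RPM tumours, against 8.39, 10.9 and 25.5 FPKM in RPR2 tumours. RPM replicates 2 and 3, at 202 and 225 FPKM, were far above the other 9 RPM tumours (23.8 to 59.7 FPKM), and RPM replicates 9 and 11 lay below RPR2 replicate 3. The log2 difference was 1.71 ± 0.64 (SE, limma adjusted p = 0.0441), and 2.15 without RPR2 replicate 3 (limma adjusted p = 0.0304). The call rests on single libraries: leaving out any one of RPM replicates 1, 7, 8 and 10 or RPR2 replicates 1 and 2 ended it, at log2 differences of 1.40 or more. Adipocyte genes, chosen after their values were seen, were high in the same tumours. The hormone gene Adipoq was at 4.60 and 4.36 FPKM in RPM replicates 2 and 3 and at most 0.75 FPKM in the other 9, Cfd was at 19.98 and 8.58 FPKM against at most 7.71, and Car3 was at 3.30 and 10.3 FPKM against at most 1.48. Plin1, which coats fat droplets, was at 0.26 and 0.50 FPKM there and at most 0.06 FPKM in the other 9. The summed level of 5 endothelial genes was 20.5 and 16.5 FPKM in these tumours, against 23.9 to 65.1 FPKM in the other RPM tumours. Single genes of the 5 differed: Cldn5 was at 4.46 and 1.86 FPKM there, against 1.16 FPKM in RPM replicate 6. Tie1 was at 3.12 and 2.62 FPKM there, against 2.82 FPKM in RPM replicate 4. The parts of fat tissue and of endothelium in the Fabp4 values were not tested.

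**Figure D2:**
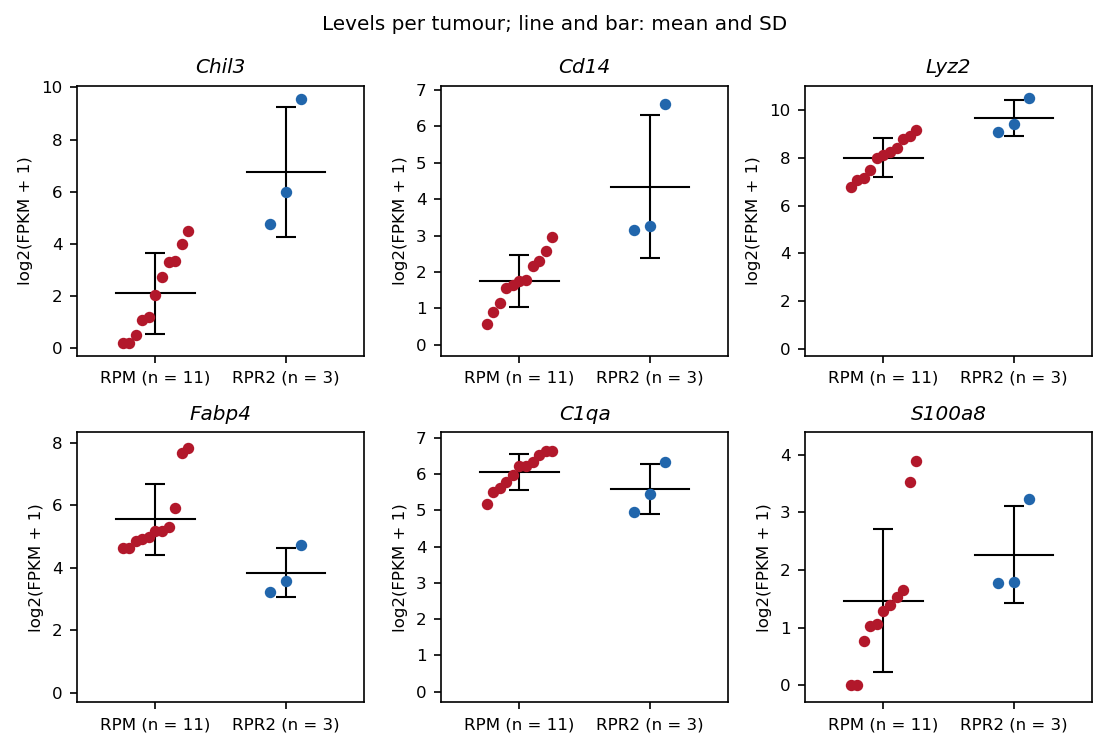
Level of 6 genes in each tumour as log2(FPKM + 1), RPM (n = 11, red) left of RPR2 (n = 3, blue), with the mean as a line and the SD as a bar. The RPM points lie below all RPR2 points for Chil3 and Cd14, 2 RPM tumours stand far above the rest for Fabp4, and the groups overlap for C1qa and S100a8.

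The 3 chains of C1q had positive differences that did not pass the test. C1qa was at 35.1 FPKM at the lowest, 74.1 at the median and 99.4 at the highest in RPM tumours, against 43.0, 30.1 and 79.2 FPKM in RPR2 tumours, so the groups overlapped. Its mean was 69.2 ± 22.1 FPKM in RPM (SD, n = 11) and 50.8 ± 25.5 FPKM in RPR2 (SD, n = 3), and the log2 difference was 0.48 (limma adjusted p = 0.247). C1qb and C1qc, its neighbours on chromosome 4, differed by 0.37 and 0.42 on the log2 scale (limma adjusted p = 0.324 and 0.225). Without RPR2 replicate 3 the differences were 0.85, 0.60 and 0.60, and none passed (limma adjusted p = 0.0538, 0.144 and 0.129). RPR2 replicate 2 was below every RPM tumour for all 3 chains.

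Genes that define the macrophage lineage also overlapped between the models. Csf1r, the receptor for the macrophage growth factors Csf1 and Il34, was at 4.50, 6.64 and 11.3 FPKM (lowest, median and highest) in RPM tumours, against 7.90, 5.15 and 16.2 FPKM in RPR2 tumours. Its log2 difference was -0.27 (limma adjusted p = 0.511), and 0.13 without RPR2 replicate 3 (limma adjusted p = 0.748). Adgre1, which encodes the F4/80 antigen, ranged from 0.84 to 6.20 FPKM in RPM and was at 4.92, 2.60 and 1.5 FPKM in RPR2. The lysosomal protein gene Cd68 ranged from 15.8 to 32.1 FPKM in RPM and was at 25.1, 13.9 and 60.6 FPKM in RPR2. Only RPR2 replicate 3 was outside the RPM range for Csf1r, and for Cd68 the RPR2 tumours lay inside, below and above it. The mannose receptor gene Mrc1 ranged from 0.33 to 6.01 FPKM in RPM and was at 2.98, 2.08 and 8.65 FPKM in RPR2. Trem2, a lipid receptor of phagocytes, ranged from 1.08 to 10.3 FPKM in RPM and was at 8.98, 5.13 and 15.6 FPKM in RPR2. Marco, a scavenger receptor of alveolar macrophages, ranged from 0.12 to 6.94 FPKM in RPM and was at 0.33, 0.47 and 9.60 FPKM in RPR2. Marco was thus low in some tumours of both models and at several FPKM in others. Mpeg1, which encodes a pore-forming protein of phagocyte vesicles, ranged from 12.6 to 35.8 FPKM in RPM and was at 41.0, 26.2 and 37.3 FPKM in RPR2. The log2 differences of the last 4 were between -0.88 and -0.10, and none passed. Leaving out RPR2 replicate 3 gave -0.21 for Mrc1, -0.51 for Trem2, 0.87 for Marco, -0.51 for Mpeg1, and -0.23 and 0.28 for Adgre1 and Cd68, and none passed by limma. Of the 8 macrophage identity and receptor genes 1 (Cd14) was called lower, with a median log2 difference of -0.42 against -0.06 over all tested genes. The medians without RPR2 replicate 3 were -0.22 for these 8 and -0.20 over all tested genes.

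None of the 9 general leukocyte and signalling members passed with all libraries. Ptprc, the leukocyte antigen CD45, was at 1.21, 2.73 and 4.77 FPKM (lowest, median and highest) in RPM tumours, against 6.26, 3.26 and 4.60 FPKM in RPR2 tumours, a log2 difference of -0.63 (limma adjusted p = 0.12), and -0.62 without RPR2 replicate 3 (limma adjusted p = 0.186). Tyrobp, the adaptor DAP12, ranged from 30.1 to 73.5 FPKM in RPM and was at 49.5, 29.5 and 103 FPKM in RPR2. Fcer1g, the common gamma chain of Fc receptors, ranged from 12.6 to 35.6 FPKM in RPM and was at 18.8, 11.2 and 77.9 FPKM in RPR2. For both adaptors RPR2 replicate 2 was below and RPR2 replicate 3 above every RPM tumour. Their log2 differences were -0.04 and -0.10 with all libraries and 0.43 and 0.68 without RPR2 replicate 3, and did not pass in either fit (limma adjusted p = 0.315 and 0.144 without it). The Fc receptor genes Fcgr1 and Fcgr3 and the integrin genes Itgam and Itgax had log2 differences between -0.67 and 0.05, and between -0.39 and 0.43 without RPR2 replicate 3. Laptm5, a lysosomal protein gene of blood cells, differed by -0.20 (limma adjusted p = 0.645). Aif1, which encodes the cytoskeletal protein IBA1, was at 7.66 to 18.7 FPKM in RPM, against 7.05, 6.5 and 15.1 FPKM in RPR2. Its log2 difference was 0.33 (limma adjusted p = 0.33), and without RPR2 replicate 3 it was called higher in RPM (0.68, limma adjusted p = 0.0412).

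The monocyte receptor gene Ccr2 did not reach the level needed for a test. It was at 0.12 to 1.0 FPKM in RPM tumours, against 0.81, 0.69 and 8.92 FPKM in RPR2 tumours. Cx3cr1, the fractalkine receptor, was at 1.38 to 4.02 FPKM in RPM, against 2.65, 2.08 and 4.28 FPKM in RPR2 (log2 difference -0.24, limma adjusted p = 0.458, and -0.02 without RPR2 replicate 3). Ctss, a lysosomal protease of antigen-presenting cells, was at 33.6 to 111 FPKM in RPM, against 108, 55.9 and 217 FPKM in RPR2 (log2 difference -0.75, limma adjusted p = 0.151). The log2 difference of Ctss was -0.26 without RPR2 replicate 3 (limma adjusted p = 0.643). Cx3cr1 and Ctss overlapped between the models.

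Neutrophil genes were low and uneven. S100a8 was listed at 0.00 FPKM at the lowest, 1.44 at the median and 13.8 at the highest in RPM tumours, against 2.41, 2.45 and 8.42 FPKM in RPR2 tumours. S100a9, its partner, was listed at 0.00, 1.75 and 15.6 FPKM (lowest, median and highest) in RPM tumours, against 1.99, 2.93 and 5.21 FPKM in RPR2 tumours. High S100a8 occurred in RPM replicates 1 and 3, of which replicate 1 alone was also high in S100a9. Retnlg, a resistin-like gene of neutrophils, was at most 0.56 FPKM in 10 RPM tumours and 4.83 FPKM in replicate 1, against 0.39, 1.42 and 4.21 FPKM in RPR2 tumours. Cxcr2 was highest in RPM replicate 2 (7.35 FPKM), a tumour with 1.08 FPKM of S100a8, and was at 0.87, 1.02 and 3.61 FPKM in RPR2. Csf3r, the receptor for granulocyte colony-stimulating factor, stayed between 0.35 and 1.54 FPKM in RPM and between 0.65 and 1.28 FPKM in RPR2. Mmp9, a granule protease, was at most 0.77 FPKM in RPM and 0.69 FPKM in RPR2 and was not tested. None of the 5 tested neutrophil members passed, and their log2 differences ran from -0.89 for Retnlg (limma adjusted p = 0.139) to 0.23 for Cxcr2 (limma adjusted p = 0.702). The 4 that could be tested without RPR2 replicate 3 ran from -0.31 for S100a8 to 0.64 for Cxcr2, and none passed. Of the granule genes of the wider neutrophil list, Mpo, Elane, Ngp and Camp were at most 0.28 FPKM in any library. Prtn3 was at 0.40 to 1.93 FPKM in RPM, against 0.35, 0.06 and 0.29 FPKM in RPR2. Ltf, which encodes lactoferrin, was listed at 0.00 to 102.9 FPKM in RPM, against 2.97, 9.12 and 9.13 FPKM in RPR2 (log2 difference 0.30, limma adjusted p = 0.863).

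**Figure D3:**
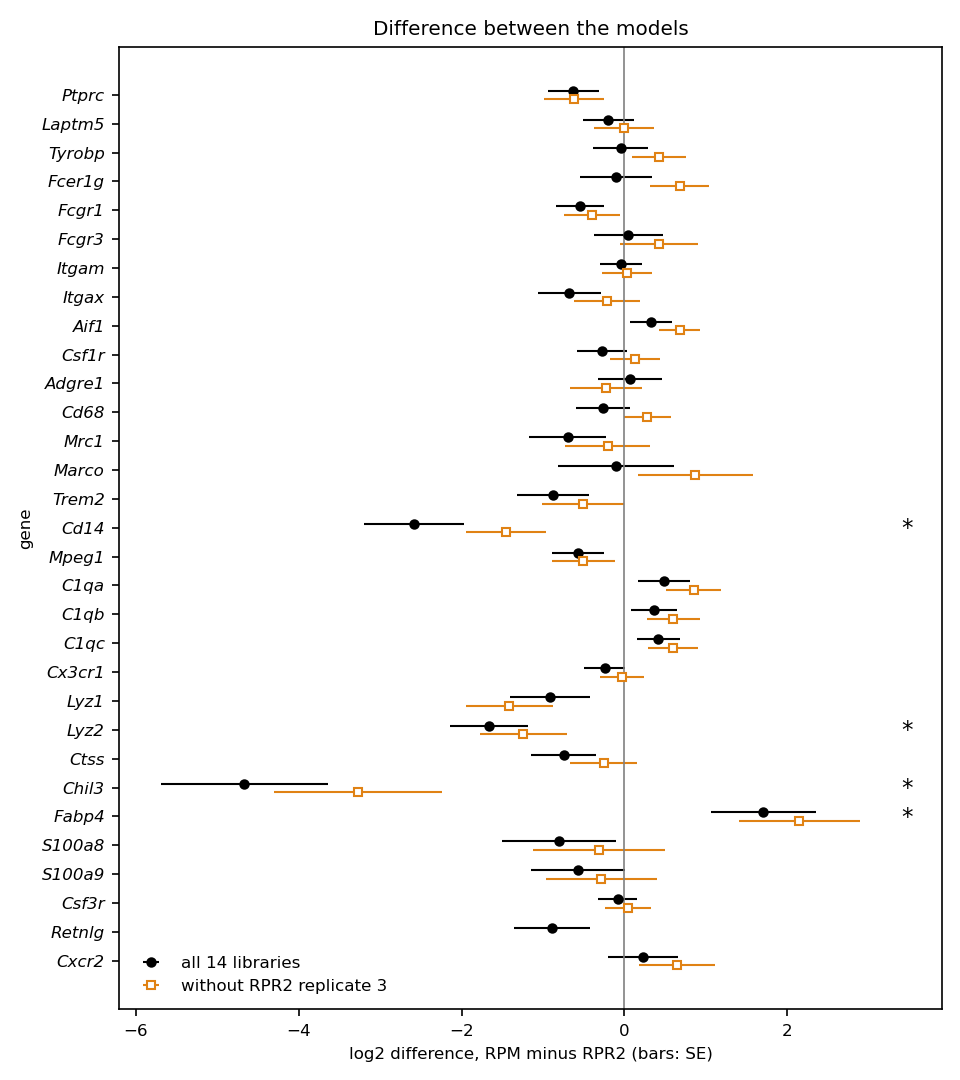
Log2 difference (RPM minus RPR2) and SE of the 31 tested genes with all 14 libraries (black) and without RPR2 replicate 3 (orange; Retnlg was not tested there), with asterisks for an adjusted p under 0.05 with all libraries. Chil3, Cd14 and Lyz2 lie left of 0 in both and Fabp4 right of 0 in both, while Tyrobp, Fcer1g, Cd68, Csf1r and Marco are among those that change side.

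Over the 31 tested members, 8 differences were positive and 23 negative, with a median of -0.26 against -0.06 over all tested genes. Without RPR2 replicate 3, 14 of 30 were positive and 16 negative, with a median of -0.01 against -0.20 over all tested genes, so the members' median was below that of all genes with the library and above it without. RPR2 replicate 3 was above every RPM tumour for 16 of the 33 members and below every RPM tumour for 0. RPR2 replicate 1 was above every RPM tumour for 7 members and below for 2. RPR2 replicate 2 was above every RPM tumour for 2 members (Cd14 and Chil3) and below for 8, including the C1q chains. Within the RPM range lay 24, 23 and 17 of the 33 members in RPR2 replicates 1, 2 and 3. The same counts were not made over all genes, so they do not single out the members.

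Some RPM tumours had most members on the same side of the RPM median. Of 29 members with an RPM median of at least 1 FPKM, 27 were below that median in RPM replicate 4, 27 in replicate 6 and 25 in replicate 8. The median log2 ratio to the RPM median was -0.76, -0.72 and -0.74 in these 3 tumours. In RPM replicate 10, 24 of the 29 were above the median, and in replicate 1, 22 were. Such counts were not made over all genes, so they do not single out the members. Summed levels of alveolar type 2 genes were 17.8, 19.7 and 64.2 FPKM in replicates 4, 6 and 8, against 571 and 552 FPKM in replicates 1 and 10. Other tumours did not follow this order. Replicates 2 and 3 had sums of 25.0 and 22.4 FPKM with median log2 ratios of 0.0008 and -0.25. Replicates 5 and 11 had the highest sums, 687 and 895 FPKM, with median log2 ratios of 0.05 and 0.10. The part of alveolar type 2 cells in the members' levels was not tested. Replicates 6 and 7, which share a title number, lay on different sides: C1qa was at 44.5 and 91.3 FPKM, Marco at 0.32 and 6.08 FPKM, and Trem2 at 1.08 and 4.28 FPKM, with alveolar type 2 sums of 19.7 and 137 FPKM. Replicates 10 and 11, which share another, were closer, with C1qa at 74.1 and 54.1 FPKM and Lyz2 at 488 and 581 FPKM. Between the lowest and the highest RPM tumour C1qc differed by 2.39 times, Lyz2 by 5.28 times and Chil3 by 133 times.

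Gene pairs chosen by role were compared across the 11 RPM tumours on the log2 scale, with permutation p-values adjusted by Benjamini-Hochberg over 10 pairs. C1qa and C1qb moved together (Pearson r = 0.920, adjusted p = 0.00085; Spearman rho = 0.836, adjusted p = 0.0155), with r = 0.827 without the 2 tumours farthest from the median of C1qa. Tyrobp and Fcer1g, adaptors that both signal through ITAM motifs, gave r = 0.967 (permutation adjusted p = 0.00085) and rho = 0.80 (adjusted p = 0.0155), with r = 0.927 without the 2 farthest tumours. Chil3 and Marco gave r = 0.810 (permutation adjusted p = 0.0166) and rho = 0.670 (adjusted p = 0.0553), with r = 0.899 without the 2 farthest. S100a8 and S100a9 gave r = 0.729 (permutation adjusted p = 0.0267) and rho = 0.761 (adjusted p = 0.0228), with r = 0.898 without the 2 farthest. Lyz2 was related to Sftpc, the surfactant protein gene of alveolar type 2 cells (r = 0.735, permutation adjusted p = 0.0267; rho = 0.80, adjusted p = 0.0155), with r = 0.788 without the 2 farthest. Lyz2 and C1qa gave r = 0.473 and rho = 0.445 (permutation adjusted p = 0.202 and 0.216), and the difference between these relations was not tested. C1qa and Csf1r gave r = 0.646 and rho = 0.618 (permutation adjusted p = 0.056 and 0.0797). C1qa with Ptprc, C1qa with S100a8, and S100a8 with Csf3r gave r of 0.274, 0.438 and 0.14 and did not pass. With 1 tumour for each title number, S100a8 with S100a9 (permutation adjusted p = 0.0537) and Lyz2 with Sftpc (permutation adjusted p = 0.0856) no longer passed.

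**Figure D4:**
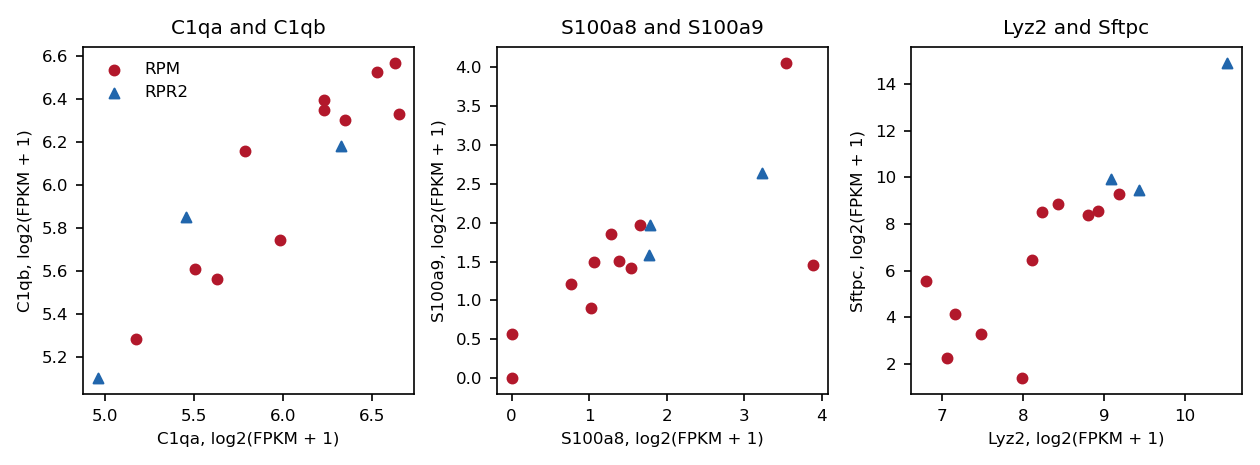
Levels of 3 gene pairs as log2(FPKM + 1), 1 point per tumour, RPM red circles and RPR2 blue triangles. C1qa and C1qb rise together, RPM replicate 3 lies apart from the line of S100a8 and S100a9, and RPR2 replicate 3 is at the top right for Lyz2 and Sftpc.

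The number of Myc alleles was compared within RPM. Between LSL/LSL (n = 9) and LSL/+ (n = 2) tumours, 0.00673% of 14862 tested genes were called by limma with Benjamini-Hochberg adjustment. Of 30 tested members 0 were called. An unadjusted limma p under 0.05 was found for 4 members, and the share of all genes under that cut was not counted. Cxcr2 was at 0.69, 1.70 and 3.0 FPKM (lowest, median and highest) in LSL/LSL tumours, against 7.35 and 3.63 FPKM in LSL/+ tumours (log2 difference -1.26, limma adjusted p = 0.233). Lyz2 was at 110.0, 301 and 581 FPKM in LSL/LSL tumours, against 142 and 133 FPKM in LSL/+ tumours (log2 difference 1.11, limma adjusted p = 0.28). The LSL/+ tumours were above all LSL/LSL tumours for Cxcr2 and inside their range for Lyz2. Laptm5 and Mpeg1 had log2 differences of 0.83 and 0.81 (limma adjusted p = 0.264 and 0.275). Over the 30 members 26 differences were positive, with a median of 0.42 against 0.16 over all tested genes. The share of positive differences over all genes was not counted. With median-of-ratios scaling the median over all tested genes was -0.003. The members' median with that scaling is not given here, so 0.42 cannot be set against -0.003. All 9 alveolar type 2 genes were also positive (median 2.30), with 0 called, and their part in the members' differences was not tested.

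Other myeloid genes were taken as lists by role, to be read against the 18.4% of all genes called higher and the 22.8% lower. For counts without RPR2 replicate 3 the shares were 16.4% higher and 27.4% lower of 15406 tested genes. Of 9 tested myeloid transcription factors, 0 were called higher in RPM and 5 lower (Cebpa, Cebpb, Irf8, Nr1h3 and Pparg), and 4 were called lower without RPR2 replicate 3, when Nr1h3 did not pass. The log2 difference of Pparg was -1.53 with all libraries and -0.62 without that replicate. Cebpb, a factor of activated macrophages, was at 0.98, 3.53 and 12.9 FPKM (lowest, median and highest) in RPM tumours, against 23.9, 26.4 and 45.3 FPKM in RPR2 tumours (log2 difference -2.85, limma adjusted p = 0.000123). Cebpa, which acts in granulocyte precursors and also in alveolar type 2 cells, was at 2.23, 4.35 and 9.62 FPKM in RPM, against 17.7, 21.9 and 262 FPKM in RPR2 (log2 difference -3.08, limma adjusted p = 0.00108). Both were called lower without RPR2 replicate 3 as well (log2 differences -2.58 and -1.85, limma adjusted p = 0.00103 and 0.00304). Spi1, which encodes PU.1, ranged from 2.04 to 6.30 FPKM in RPM and was at 6.14, 3.78 and 16.2 FPKM in RPR2, and did not pass (log2 difference -0.82, limma adjusted p = 0.0756, and -0.30 without RPR2 replicate 3).

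Of 12 genes of Fc receptor and ITAM signalling 0 were called higher and 5 lower (Btk, Pik3ap1, Plcg2, Ptpn6 and Syk), and 4 of 11 were called lower without RPR2 replicate 3. Ptpn6, the phosphatase SHP-1, was at 2.19, 4.27 and 8.12 FPKM in RPM tumours, against 24.5, 25.9 and 50.2 FPKM in RPR2 tumours (log2 difference -2.71, limma adjusted p = 1.07e-05, and -2.39 without RPR2 replicate 3). Pik3ap1, an adaptor for PI3-kinase, was at 0.10, 0.60 and 1.89 FPKM in RPM, against 21.9, 19.6 and 1.04 FPKM in RPR2 (log2 difference -2.54, limma adjusted p = 0.00148). The high Pik3ap1 levels were thus in the RPR2 tumours other than replicate 3, and the log2 difference without that replicate was -3.68. Of 13 further macrophage genes 3 were called lower (Cybb, Ncf1 and Ncf4, which encode parts of the phagocyte oxidase). With that replicate left out, Ncf1 was called lower and Apoe higher, and Cybb and Ncf4 did not pass. Of 5 tested lung macrophage genes 3 were called lower (Car4, Ear1 and Plet1), and 1 (Ear1) was without RPR2 replicate 3. Siglecf, a defining marker of alveolar macrophages, was at most 0.35 FPKM in RPM and at 0.29, 0.27 and 4.53 FPKM in RPR2. Of 10 tested chemokines 4 were called lower (Ccl12, Ccl6, Ccl9 and Cxcl1), and 1 (Ccl12) was without RPR2 replicate 3. Of 5 tested growth factor and receptor genes 1 was called lower, Il34 (log2 difference -1.85, limma adjusted p = 0.0243), and it did not pass without RPR2 replicate 3 (-0.53, limma adjusted p = 0.204). Il34 was at 0.66 to 5.11 FPKM in RPM, against 3.43, 3.66 and 69.0 FPKM in RPR2, where replicate 3 was the highest. Csf1 was called lower without that replicate (-1.14, limma adjusted p = 0.0115) and not with it (-0.48, limma adjusted p = 0.35). Of 5 tested genes of the wider neutrophil list, Cxcr4 and Prtn3 were called higher and Lcn2 lower. None of the 5 was called without RPR2 replicate 3. Cxcr4, a chemokine receptor gene and not a granule gene, was at 15.1 to 45.1 FPKM in RPM. Lcn2 was at 837 FPKM in RPR2 replicate 3, against 53.6 and 68.2 FPKM in the other RPR2 tumours. The cells that these transcripts came from were not tested. Marker genes of other leukocytes had low summed levels, and numbers of cells were not measured. The sum of 10 T and NK cell genes was 3.09 to 17.9 FPKM in RPM, against 8.37 to 17.4 FPKM in RPR2. That of 5 B cell genes was 0.57 to 11.6 FPKM in RPM, against 5.83 to 17.4 FPKM in RPR2. Of 4 tested T and NK cell genes Cd4 was called higher in RPM and Cd2 and Lck lower, with and without RPR2 replicate 3.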

How the data were processed

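Tumour RNA was made into stranded, poly(A)-selected libraries, per the labels' protocols. The authors deposited 1 table of FPKM per gene and library; Bowtie 1.0.1, RSEM 1.2.12 and mm10 are listed, without roles, per the submitters' processing notes. Strand setting, annotation release and scaling: not given in the sources used here. Groups came from genotype labels and allele numbers from source names, and 1 row that is no Ensembl gene was left out.

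FPKM were analysed as log2(FPKM + 1), which shrinks differences of weakly expressed genes. Genes with at least 1 FPKM in at least 3 libraries entered a limma fit (version 3.58.1, R 4.3.3; empirical Bayes with trend, two-sided, Benjamini-Hochberg, threshold 0.05), checked on simulated data. Depth was estimated from the spacing of the lowest values and is not a count. Shared sequence was measured as 50-base words over GENCODE transcripts on GRCm38. Correlations used 100000 permutations (scipy 1.17.1). All 33 members are named, and of other lists those called or with the smallest p. The members and lists were chosen with earlier results of these data known. Alternatives were other pseudocounts, filters, scalings, weights, tumour subsets and each library left out.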

Additional observations from a re-analysis of the deposited data

Results flagged for a closer look

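Single tumours were far from the rest of the 9 LSL/LSL tumours for 3 of the 33 members, judged by the gap to the next tumour as a share of the whole range on the log2(FPKM + 1) scale, at the 95% level of Dixon’s test. Chance marks about 1 in 20 such groups if values are normally distributed, and the share of all genes marked was not counted. RPM replicate 3 was highest for Fabp4, at 225 FPKM, with a gap of 0.595 of the log2 range. The LSL/+ tumour RPM replicate 2, outside this group, was at 202 FPKM. RPM replicate 1 was highest for S100a9, at 15.6 FPKM, with a gap of 0.514 of the log2 range. RPM replicate 1 was also highest for Retnlg, at 4.83 FPKM, with a gap of 0.748 of the log2 range. Its S100a8 level of 10.6 FPKM was not marked, because replicate 3 was higher still.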

How the results depend on the processing

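Chil3 and Cd14 kept their call in all 26 alternatives (log2 differences of -5.67 to -2.76 and of -3.17 to -1.45), Lyz2 in 25 and Fabp4 in 18. The count of members called higher in RPM, 1 as reported, was 0 with no filter, 0 with median-of-ratios scaling, 8 with array weights and 0 to 2 with single libraries left out (0 without RPM replicate 1, for example, and 2 without RPR2 replicate 3). The 8 were Fabp4, Aif1, Tyrobp, Fcer1g, Cd68, C1qa, C1qb and C1qc. With array weights 27.3% of all 15719 tested genes were called higher, so 8 of 31 members were near the share of all genes. The share of all genes called lower with array weights was 41.8%. The count called lower, 3 as reported, was 5 with array weights and 3 to 4 with single libraries left out. Over all genes, TPM scaling (each library scaled to the same total) gave 1878 called higher and a median log2 difference of -0.23, against -0.06 as reported, a filter at a mean of 5 FPKM gave 2171 called lower and array weights gave 6577 called lower. Leaving out single libraries gave 2276 to 3033 called higher and 2360 (without RPR2 replicate 2) to 4227 (without RPR2 replicate 3) called lower. Between Myc alleles, a pseudocount of 0.1 gave 4 genes called higher, no filter gave 30 called lower, and single libraries left out gave 0 to 6 called higher and 0 to 1 called lower. With 1 tumour per title number, r was 0.727 for S100a8 with S100a9 and 0.682 for Lyz2 with Sftpc. The causes of these changes were not tested.

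Differences of members that had not passed turned sign as follows. With quantile normalization they were 0.02 for Laptm5, 0.03 for Tyrobp, 0.14 for Fcer1g, 0.05 for Itgam, 0.06 for Csf1r and 0.01 for Cx3cr1, and with median-of-ratios scaling 0.04 for Tyrobp. With TPM scaling they were -0.14 for Fcgr3 and -0.11 for Adgre1, and with 1 tumour per title number -0.06 for Adgre1. With LSL/LSL tumours alone they were 0.12 for Marco, 0.01 for Csf3r and -0.00 for Cxcr2. Array weights gave 0.26 for Laptm5, 0.67 for Tyrobp, 0.88 for Fcer1g, 0.30 for Itgam, 0.20 for Itgax, 0.41 for Csf1r, 0.59 for Cd68, 1.05 for Marco, 0.10 for Cx3cr1, 0.15 for Ctss and 0.07 for Csf3r, of which Tyrobp, Fcer1g and Cd68 passed. With single libraries left out the lowest and highest were -0.46 and 0.43 for Tyrobp, -0.67 and 0.68 for Fcer1g, -0.34 and 0.43 for Fcgr3, -0.23 and 0.08 for Itgam, -0.61 and 0.13 for Csf1r, -0.23 and 0.39 for Adgre1, -0.74 and 0.28 for Cd68, -0.63 and 0.87 for Marco, -0.19 and 0.04 for Csf3r and -0.01 and 0.64 for Cxcr2. No paired analysis was possible because the titles give the models no shared replicate numbers. With 3 RPR2 tumours an exact permutation over the 364 splits cannot go below 0.00549.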

Other observations

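Ratios between members within a library do not depend on how libraries are scaled, and the ratio of each tested member to C1qa was examined after the levels had been seen, as a description. For 8 of the 30 other tested members every RPM tumour had a lower ratio than every RPR2 tumour, and for 0 every RPM tumour had a higher one. Over all 15719 tested genes the shares were 11.4% lower and 2.36% higher. The 8 members were Chil3, Cd14, Lyz2, Ctss, Trem2, Csf1r, Mrc1 and Cx3cr1. By level, only Chil3 and Cd14 of the 31 tested members had every RPM tumour below every RPR2 tumour, against 13.6% of all tested genes. C1qa itself had a positive log2 difference (0.48, not called), which lowers ratios to it in RPM. The ratio counts therefore do not single out the members. The FPKM ratio of Lyz2 to C1qa was 1.91 to 10.7 in RPM tumours, with a median of 3.77, against 16.0, 18 and 18.5 in RPR2 tumours. The ratio of Ctss to C1qa was 0.748 to 1.6 in RPM tumours, against 2.52, 1.86 and 2.74 in RPR2 tumours. The ratio of C1qb to C1qa was 0.80 to 1.30 in RPM tumours, against 1.32, 1.10 and 0.903 in RPR2 tumours. RPR2 replicate 3, which had the highest level of many members, was close to the other RPR2 tumours in the ratio of Lyz2 to C1qa and far above them in that of Chil3 to C1qa (9.46, against 1.44 and 0.869).

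Fabp5, a paralog of Fabp4 that was added after its values were seen, was higher in RPM, at 292 to 541 FPKM against 67.2, 36.4 and 163 FPKM in RPR2 tumours (log2 difference 2.43, limma adjusted p = 3.15e-05, and 3.0 without RPR2 replicate 3). RPM replicates 2 and 3, which had the highest Fabp4, had 511 and 487 FPKM of Fabp5, within the range of the other RPM tumours. Apoe, a lipid carrier made by macrophages, was at 235 to 694 FPKM in RPM tumours, against 207, 194 and 1236 FPKM in RPR2 tumours, and was called higher in RPM without RPR2 replicate 3 but not with all libraries (without it, log2 difference 1.24, limma adjusted p = 0.00779). Cd4 was higher in RPM, at 1.23 to 8.18 FPKM against 0.65, 0.52 and 0.19 FPKM in RPR2 tumours (log2 difference 1.63, limma adjusted p = 0.0037). Of the same list, Cd2 was lower in RPM, at 0.14 to 1.22 FPKM against 2.50, 1.10 and 10.6 FPKM in RPR2 tumours (log2 difference -1.51, limma adjusted p = 0.00534). Lck was also lower, at 0.45 to 2.46 FPKM against 5.83, 4.24 and 1.80 FPKM (log2 difference -1.10, limma adjusted p = 0.0188), and Cd3g did not pass (log2 difference -0.63, limma adjusted p = 0.205).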
